A study of Mus musculus with 9 samples.

Results

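The 9 genes described here encode the main regulators and receptors of the T helper 1 (Th1) lineage and its signature cytokine: Tbx21, Eomes, Runx3, Hlx, Stat4, Il12rb1, Il12rb2, Il18r1 and Ifng. They were chosen by name, from a list of symbols that sets no threshold on measured values, and each symbol matched 1 of the 47937 gene identifiers in the count table. All 9 passed the filter on low counts and were among the 12536 genes tested. Their RNA was measured in CD4+CD62L+ T cells (helper T cells that carry the lymph node homing receptor of naive cells) from the spleens of C57BL/6 mice, purified with magnetic beads, in 3 groups of 3 libraries numbered 1, 4 and 5. Resting cells are labelled as such, with no stimulus or compound named for them. Control cells were stimulated on plates coated with antibodies to CD3 and CD28 after 15 min with the solvent DMSO. TEPP-46 cells received the same stimulus after 15 min with TEPP-46, an activator of the glycolytic enzyme pyruvate kinase M2, at a concentration that the labels give only as 50 to 100 µM. The labels call both activated groups Th0, a name for T cells activated without lineage-directing cytokines, and name no such cytokine. The labels state neither how long the cells were stimulated, nor the age or sex of the mice, nor whether resting cells spent time in culture. They also do not say that the libraries of a group came from separate mice or cultures, so the p-values measure the spread between these libraries, which may be technical.

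Naive helper T cells become Th1 cells when a signal through the T cell receptor is joined by interferon gamma and interleukin 12. The interleukin 12 receptor, a pair of the chains encoded by Il12rb1 and Il12rb2, activates the transcription factor STAT4. Interferon gamma signals to raise T-bet, the product of Tbx21, which defines the lineage and works with RUNX3 and HLX at Th1 genes, among them Ifng. Eomesodermin, encoded by Eomes, is a T-box relative of T-bet best known in CD8 T cells and natural killer (NK) cells. The chain encoded by Il18r1 binds interleukin 18, which drives interferon gamma production in cells that are already of the Th1 type.

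The sequences just before the transcription starts show where these genes carry letters that such factors are known to bind. RefSeq start sites on GRCm38.p6 were matched for 8 of the 9 genes, with 12 starts in all, and the 250 bases before each start were searched on both strands. Shown are 3 of these windows, 5′ to 3′ on the strand of the gene, because they hold the letters of a STAT or a RUNX motif, belong to genes whose RNA differed between groups and, unlike 1 window of Il18r1 described after them, overlap no exon of their own gene. Capitals mark TTCNNNGAA (STAT) in the first 2 windows, and in the third ACCACA, the reverse complement of TGTGGT (RUNX).
Il12rb2, chr6:67376189-67376438, minus strand: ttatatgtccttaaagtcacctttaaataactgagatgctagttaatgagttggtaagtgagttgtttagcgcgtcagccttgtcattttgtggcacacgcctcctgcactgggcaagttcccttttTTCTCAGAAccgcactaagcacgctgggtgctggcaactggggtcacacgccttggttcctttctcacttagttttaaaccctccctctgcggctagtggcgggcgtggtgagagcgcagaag
Ifng, chr10:118440796-118441045, plus strand: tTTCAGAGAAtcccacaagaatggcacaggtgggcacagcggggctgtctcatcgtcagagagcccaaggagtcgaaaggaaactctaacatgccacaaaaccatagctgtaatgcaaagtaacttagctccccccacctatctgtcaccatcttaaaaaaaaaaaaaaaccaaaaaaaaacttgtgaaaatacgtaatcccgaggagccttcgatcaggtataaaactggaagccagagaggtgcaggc
Runx3, chr4:135120395-135120644, plus strand: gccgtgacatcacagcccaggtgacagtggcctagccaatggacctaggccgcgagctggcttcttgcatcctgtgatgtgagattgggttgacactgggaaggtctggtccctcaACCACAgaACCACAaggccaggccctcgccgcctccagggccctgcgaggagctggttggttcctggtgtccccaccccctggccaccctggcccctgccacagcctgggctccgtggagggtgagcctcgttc
The STAT letters began 123 bases before the start of Il12rb2 and 249 bases before that of Ifng. In 1 of the 3 Il18r1 windows they began 219 and 152 bases before the start, within a stretch that overlaps exons of other Il18r1 transcripts. Of all 32851 windows of this length in the RefSeq table, 7.02% held the STAT letters and 14.0% held the RUNX letters, which among the 12 windows of these genes occurred only in that of Runx3, at 134 and 126 bases before its start. The letters GGAAA or TTTCC (NFAT) were in 8 windows of Hlx, Ifng, Il18r1, Stat4 and Tbx21, against 55.6% of all windows. No window of the 8 genes held TGANTCA (AP-1, 6.75% of all windows) or GGTGTGA or its reverse complement TCACACC (T-box, 3.33% of all windows). A match describes the letters only.

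Library totals ranged from 2397304 counts (TEPP-46 replicate 4) to 5030643, so that 3 counts stood for 0.603 to 1.26 CPM (counts scaled to 1000000 per library, with TMM factors). The libraries held RNA of the labelled cells, with 455 to 902 CPM of Cd4 in all 9. The TEPP-46 libraries were the least alike, with a median SD of log2 CPM over genes of 0.519 against 0.31 in resting and 0.2 in control libraries. Malat1, a nuclear RNA, stood at 12292 and 12824 CPM in TEPP-46 replicates 4 and 5 and at 2532 CPM in replicate 1. It was at 2067 to 4120.4 CPM in the controls and at 8385, 4373 and 5292 CPM in resting replicates 1, 4 and 5. The summed level of 5 activation markers was 2832 to 3431 CPM in the controls and 683 to 1336 CPM in resting cells. In TEPP-46 replicates 1, 4 and 5 it was 1853, 542 and 692 CPM. Most of the resting sum was Cd69, at 567, 925 and 771 CPM. Of the 5, 3 were called higher (Il2ra, Mki67 and Tfrc) and 1 lower (Cd69) in TEPP-46 than in resting cells. The shares of all genes tested were 6.37% and 3.92%. In control against resting cells 4 of the 5 were called higher and 1, again Cd69, lower (log2 fold change -1.34), with shares of 15.5% and 15.8%. In TEPP-46 against control cells none was called higher and 3 were called lower, Il2ra and Tfrc among them, with shares of 9.72% and 6.43%. Il2ra stood at 833, 274 and 311 CPM in TEPP-46 and at 28.6 to 65.5 CPM in resting libraries. Summed B cell markers were 2548 to 3967 CPM in resting, 231 to 257 CPM in control and 739.9 to 1252 CPM in TEPP-46 libraries, and summed myeloid markers were 181 to 257, 97.3 to 111 and 127 to 222 CPM. The part of these differences in the results on the Th1 genes was not tested. In RNA from bulk cells, fewer cells of a type and less RNA per cell cannot be told apart.

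Between control and resting cells, calls among the Th1 genes went in both directions. Both chains of the interleukin 12 receptor, T-bet and Runx3 rose by between 2.10 and 5.30 on the log2 scale, while the interleukin 18 receptor chain and Ifng itself fell. Of the 9 genes, 4 were higher and 2 lower in control than in resting cells (edgeR's quasi-likelihood test, adjusted p under 0.05 over all genes tested). Among all genes tested, 15.5% were called higher and 15.8% lower in this comparison. The median log2 fold change was 0.02 over the 9 genes and -0.04 over all genes tested. Control and resting libraries did not overlap for 6 of the 9 genes (Tbx21, Runx3, Il12rb1, Il12rb2, Il18r1 and Ifng) and for 59.2% of all genes tested. The 6 of 9 are near that share.

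Cells activated with TEPP-46 had more RNA of Stat4 than control cells, by 2.27-fold, and more of Tbx21, Runx3, Il12rb1 and Il12rb2 than resting cells. In TEPP-46 against control cells, Stat4 was the only one of the 9 called higher and none was called lower, against 9.72% of all genes called higher and 6.43% called lower. The median log2 fold change was 0.58 over the 9 genes and 0.04 over all genes. Libraries did not overlap for Stat4 and Hlx, and for 39.7% of all genes. Against resting cells, 5 of the 9 were higher in TEPP-46 cells (Tbx21, Runx3, Stat4, Il12rb1 and Il12rb2) and 1 was lower (Il18r1), with 6.37% of all genes called higher and 3.92% called lower. The median was 1.20 over the 9 genes and 0.02 over all, and the libraries did not overlap for 7 of the 9 genes and for 26.8% of all genes. The comparisons of control and of TEPP-46 cells with resting cells use the same resting libraries. Control against resting and TEPP-46 against control cells likewise share the control libraries, with opposite sign. Variation in the controls alone thus moves these values in opposite directions. Fold changes, here and below, are therefore given side by side and not related to each other.

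**Figure D1:**
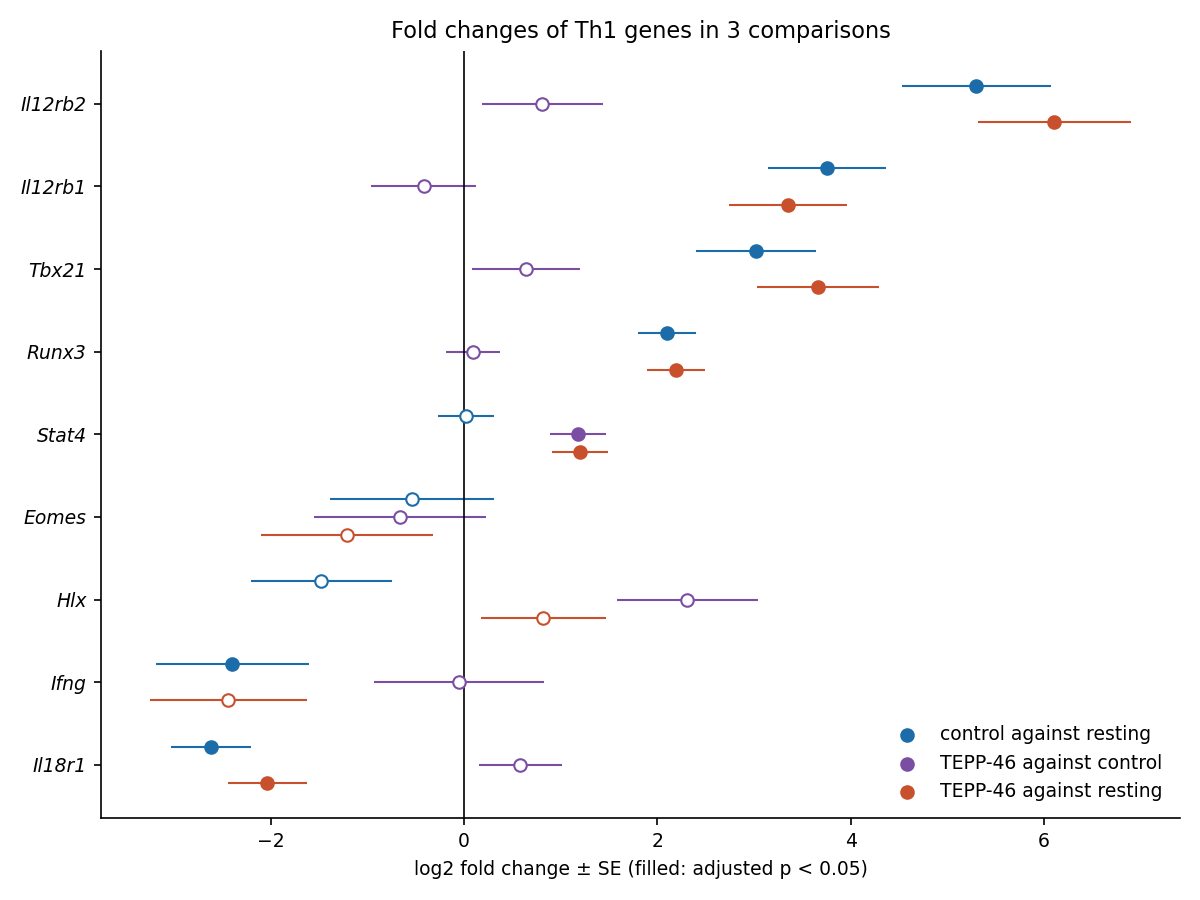
Log2 fold changes (x axis, ± SE from the edgeR fit) of the 9 Th1 genes (rows) in control against resting, TEPP-46 against control and TEPP-46 against resting cells, 3 libraries a group; filled points have an adjusted p under 0.05. Il12rb2, Il12rb1, Tbx21 and Runx3 lie above 2 in both comparisons with resting cells, and Stat4 is the only gene filled in TEPP-46 against control.

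Il12rb2 encodes the chain of the interleukin 12 receptor that carries the signal to STAT4 (chromosome 6, 67291318 to 67376188, minus strand, on GRCm38). In the resting libraries it stood at 20.1, 4.23 and 2.81 CPM (replicates 1, 4 and 5). Control libraries held 268, 507 and 316 CPM, and TEPP-46 libraries 1084, 291 and 539 CPM. Every activated library was above every resting one, and the TEPP-46 libraries spanned both sides of the highest control. The rise in control over resting cells was 39.4-fold (log2 5.30 ± 0.77 SE, adjusted p = 0.00118), and that in TEPP-46 over resting cells was 69.2-fold (log2 6.11 ± 0.79, adjusted p = 0.00224). Resting replicate 1 set much of the resting mean: without it these values were 6.69 and 7.50, and without TEPP-46 replicate 1 the second was 5.48. TEPP-46 and control cells differed by 0.81 ± 0.63 (adjusted p = 0.383), and by 0.18 without TEPP-46 replicate 1. Il12rb2 shares 1519 exonic bases with Serbp1 on the opposite strand, and without a stated strand of counting their reads there cannot be told apart. Serbp1 was at 476 to 631 CPM in the resting libraries, in which Il12rb2 was at most 20.1 CPM, at 867, 1038 and 882 CPM in control and at 1158, 573 and 639 CPM in TEPP-46 libraries. Within each activated group the libraries thus stood in the same order for both genes. The part of shared reads in the level of Il12rb2 was not tested.

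Il12rb1 encodes the other chain, which the interleukin 23 receptor also uses (chromosome 8, 70808449 to 70821424, plus strand). Its level was 2.62, 8.45 and 13.6 CPM in resting libraries. In control libraries it was 118, 92.9 and 125 CPM, a narrow range, and in TEPP-46 libraries 137, 30.7 and 82.2 CPM. Both activated groups lay wholly above the resting group, and the TEPP-46 libraries reached both above and below the controls. The gene rose by 3.76 ± 0.61 on the log2 scale in control over resting cells (adjusted p = 0.00195) and by 3.35 ± 0.61 in TEPP-46 over resting cells (adjusted p = 0.00987). Without resting replicate 5 these were 4.36 and 3.94. The difference between TEPP-46 and control cells, -0.42 ± 0.54, did not pass the test (adjusted p = 0.609).

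Il18r1, for the ligand-binding chain of the interleukin 18 receptor, went the other way (chromosome 1, 40465552 to 40500854, plus strand). Resting libraries held 14.7, 15.8 and 16.9 CPM. In controls the level was 3.68, 1.68 and 2.27 CPM (15, 7 and 9 counts). TEPP-46 libraries held 3.58, 2.94 and 4.85 CPM (13, 7 and 15 counts). No activated library reached a resting one, and the activated groups overlapped. In control cells Il18r1 fell by 2.62 ± 0.41 on the log2 scale (adjusted p = 0.00169), and in TEPP-46 cells it fell by 2.04 ± 0.41 (adjusted p = 0.0136). The latter call was lost without resting replicate 4 or 5 (adjusted p = 0.0538 and 0.059). TEPP-46 cells differed from controls by 0.58 ± 0.43 (adjusted p = 0.367). Il18rap, the gene of the second chain of the same receptor, lies 14.507 kb further along the chromosome. It was also lower in control than in resting cells (-3.69 ± 0.99, adjusted p = 0.0183), with means of 0.489 and 6.72 CPM. The control libraries held 3, 2 and 1 counts of Il18rap, at or under the floor of 3 counts. In TEPP-46 cells Il18rap varied from 0 counts in replicate 4 to 8.74 CPM in replicate 5, and its difference from the controls of 3.05 ± 1.01 did not pass the test (adjusted p = 0.0648).

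Stat4 encodes the factor that the interleukin 12 receptor activates (chromosome 1, 51987148 to 52107189, plus strand). It was the only gene of the 9 called in TEPP-46 against control cells, which is near the 9.72% of all genes called higher. Resting libraries held 139, 71.0 and 76.4 CPM and control libraries 83.4, 100.3 and 106 CPM. In TEPP-46 libraries the level was 218, 168 and 273 CPM. Each TEPP-46 library was above all 6 others, whereas resting and control libraries overlapped. Control cells differed from resting cells by 0.02 ± 0.29 on the log2 scale (adjusted p = 0.966). In TEPP-46 cells Stat4 rose by 1.18 ± 0.29 over control (adjusted p = 0.0242) and by 1.20 ± 0.29 over resting cells (adjusted p = 0.0296). These calls rested on the full set of libraries. The first did not pass when control replicate 1, 4 or 5 or TEPP-46 replicate 5 was left out, with log2 values of 1.0 to 1.25 and adjusted p of 0.082 to 0.101. The second did not pass when resting replicate 4 or 5, control replicate 4 or 5 or TEPP-46 replicate 5 was left out, at adjusted p of 0.0547 to 0.117, and when only these 2 groups were fitted (0.0912). The summed level of 10 genes that mark T cells rather than a subset was 8068 to 10267 CPM in TEPP-46 libraries. It was 4021 to 5616 CPM in control and 6369.5 to 9898 CPM in resting libraries. In TEPP-46 against control cells, where 9.72% of all genes were called higher, 5 of these 10 were called higher. Their part in the value of Stat4 was not tested.

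Tbx21 encodes T-bet (chromosome 11, 97098071 to 97115331, minus strand). In resting libraries it was at 5.83, 14.3 and 18.2 CPM. Control libraries held 150.1, 80.2 and 79.9 CPM, and TEPP-46 libraries 309, 60.1 and 113 CPM. All activated libraries exceeded all resting ones. The TEPP-46 libraries held both the highest and the lowest activated value, and replicate 1, the highest, also had the most activation marker RNA of its group (1853 CPM). Tbx21 rose by 3.02 ± 0.62 on the log2 scale in control over resting cells (adjusted p = 0.00545) and by 3.66 ± 0.63 in TEPP-46 over resting cells (adjusted p = 0.00813), the latter 2.77 without TEPP-46 replicate 1. Its difference between TEPP-46 and control cells was 0.64 ± 0.56 (adjusted p = 0.443), and turned to -0.26 without that library. Tbkbp1, the nearest coding gene on 1 side, 20.839 kb away, which encodes an adaptor of the kinase TBK1, rose by 5.51 ± 0.65 in control over resting cells (adjusted p = 0.000486), from a mean of 1.28 to 59.6 CPM. In TEPP-46 cells Tbkbp1 was at a mean of 36.8 CPM, -0.68 ± 0.49 from the controls (adjusted p = 0.348).

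Runx3 encodes a DNA-binding factor that works with T-bet and silences Cd4 in CD8 T cells (chromosome 4, 135120652 to 135177990, plus strand). It was at 19.1, 43.3 and 34.4 CPM in resting libraries. Control libraries held 138, 151 and 125 CPM and TEPP-46 libraries 128, 179.8 and 133 CPM. The activated groups overlapped each other and lay above the resting group. Runx3 rose by 2.10 ± 0.30 on the log2 scale in control over resting cells (adjusted p = 0.00108) and by 2.19 ± 0.30 in TEPP-46 over resting cells (adjusted p = 0.00272). The activated groups differed by 0.09 ± 0.28 (adjusted p = 0.845).

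Eomes (chromosome 9, 118478212 to 118486132, plus strand) passed the test in no comparison. Its levels were 7.44, 11.1 and 13.0 CPM in resting, 12.5, 5.52 and 3.53 CPM in control and 10.7, 0 and 2.26 CPM in TEPP-46 libraries. The groups overlapped, and replicate 1 was the highest library of both activated groups. TEPP-46 replicate 4 held no count of Eomes, where 3 counts would be 1.26 CPM. The log2 differences were -0.54 ± 0.85 in control and -1.21 ± 0.89 in TEPP-46 against resting cells (adjusted p = 0.661 and 0.424), and -0.66 ± 0.89 in TEPP-46 against control cells (adjusted p = 0.628). The last ranged from -2.52 without TEPP-46 replicate 1 (adjusted p = 0.0553) to -0.01 without control replicate 1. Without TEPP-46 replicate 1, Eomes was called lower in TEPP-46 than in resting cells (-3.07, adjusted p = 0.048).

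Hlx encodes a homeobox factor that acts with T-bet on Ifng (chromosome 1, 184727140 to 184732619, minus strand) and was the scarcest of the 9 per length in resting and control cells. Resting libraries held 14, 6 and 12 counts (2.82, 1.58 and 2.60 CPM), control libraries 7, 1 and 2 counts (1.72, 0.24 and 0.504 CPM) and TEPP-46 libraries 10, 17 and 9 counts (2.75, 7.14 and 2.91 CPM). All TEPP-46 libraries were above all controls, and control and resting libraries overlapped. The difference of 2.31 ± 0.73 between TEPP-46 and control cells did not pass the test (adjusted p = 0.0548). It passed by DESeq2 (2.32, adjusted p = 0.0406), by limma-voom with library weights (2.37, adjusted p = 0.00559) and without TEPP-46 replicate 1 (2.54, adjusted p = 0.0315), and was 3.38 without control replicate 1 (adjusted p = 0.0591). Control cells differed from resting cells by -1.48 ± 0.73 (adjusted p = 0.146, and -2.56 without control replicate 1) and TEPP-46 cells from resting cells by 0.82 ± 0.65 (adjusted p = 0.462).

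**Figure D2:**
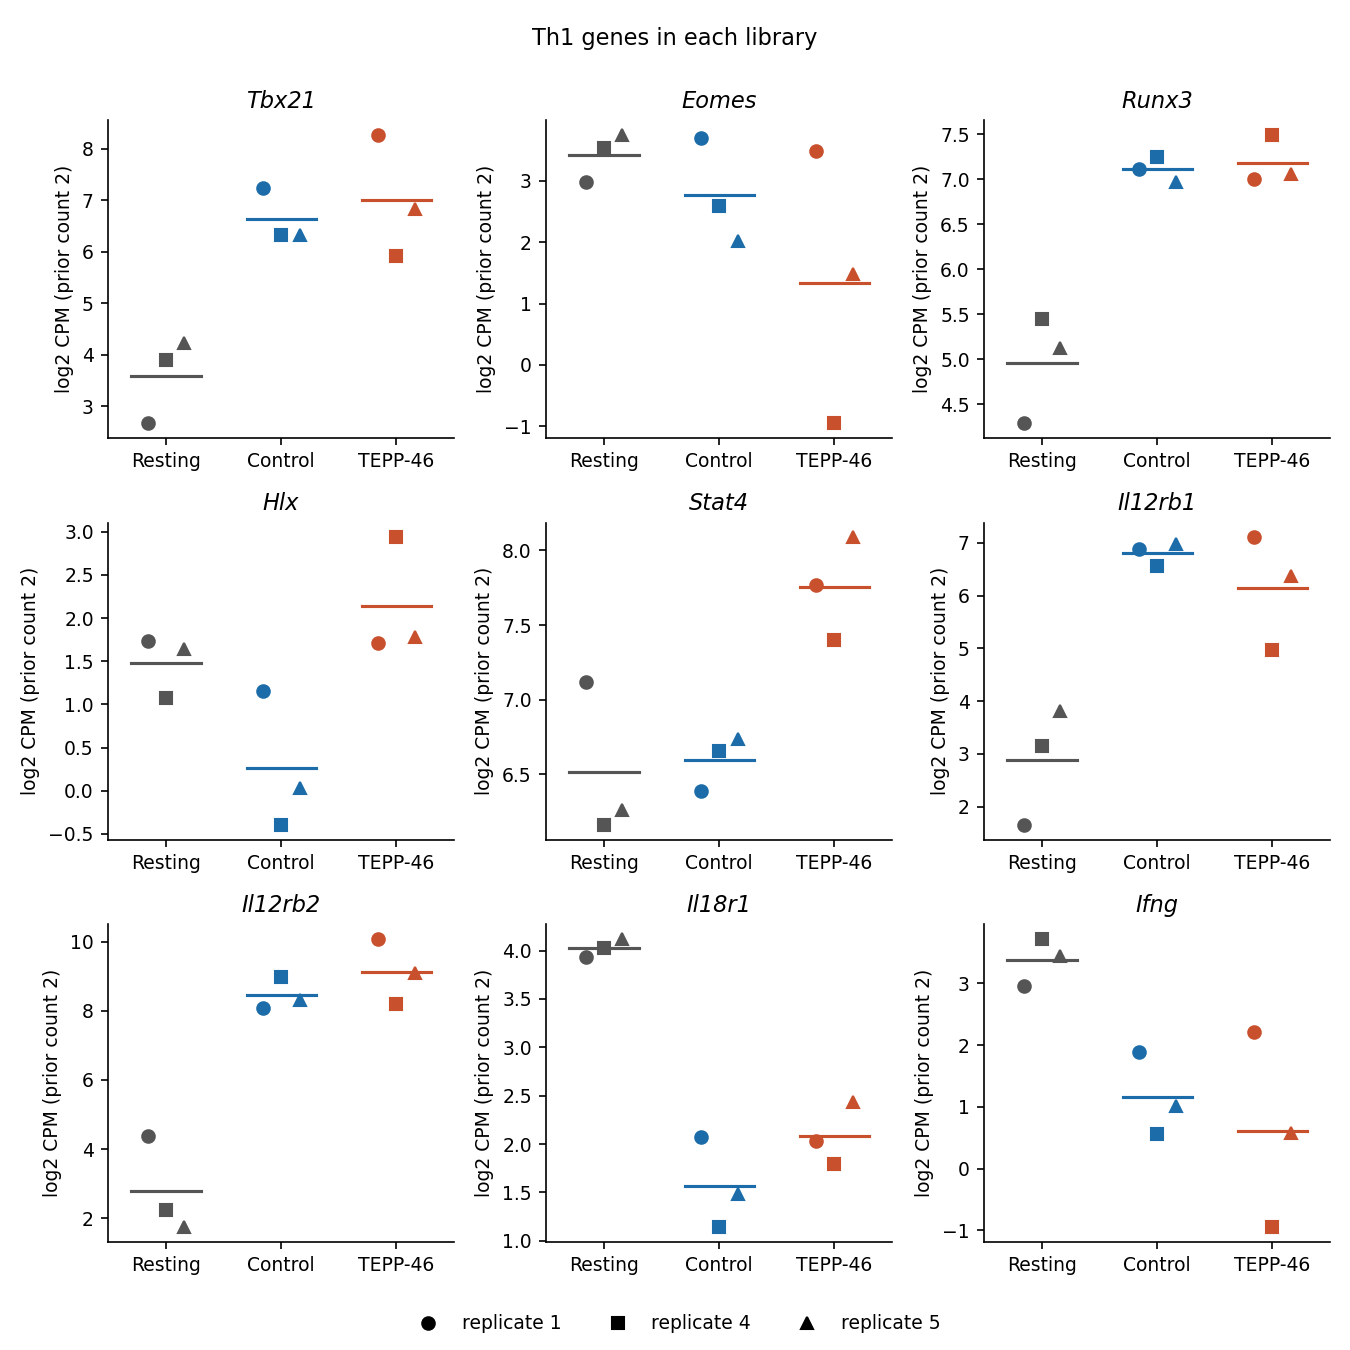
Log2 CPM (y axis, prior count 2, a scale of its own in each panel) of the 9 Th1 genes in each library, by group (x axis), with marker shapes for replicates 1, 4 and 5 and a bar at the mean of 3 libraries. TEPP-46 replicate 4 was the lowest of its group for 7 of the 9 genes, all but Runx3 and Hlx.

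Ifng, the cytokine gene itself (chromosome 10, 118441046 to 118445892, plus strand), was scarce in all groups. Resting libraries held 36, 48 and 48 counts, which were 7.24, 12.7 and 10.4 CPM. Control libraries held 13, 4 and 6 counts (3.19, 0.96 and 1.51 CPM), and TEPP-46 libraries 15, 0 and 3 counts (4.13, 0 and 0.971 CPM). Every resting library was above every activated one. Control cells fell by 2.4 ± 0.79 below resting cells on the log2 scale (adjusted p = 0.0426). Leaving out any resting library, any control library or TEPP-46 replicate 5 ended this call, at adjusted p of 0.0511 to 0.153, with a value of -2.99 without control replicate 1. The difference between TEPP-46 and resting cells was -2.44 ± 0.81 (adjusted p = 0.0848). It passed by DESeq2 (adjusted p = 0.0253), by limma-voom (0.0486, and 0.00298 with library weights), without a filter on low counts (0.0311) and without TEPP-46 replicate 1 (-4.16, adjusted p = 0.0163). TEPP-46 and control cells differed by -0.05 ± 0.88 (adjusted p = 0.976). The control group held 23 counts in all and the TEPP-46 group 18, against 132 in the resting group.

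Markers of other cells that can make interferon gamma also differed between the groups. The 12 NK cell markers summed to 33.6 to 50.8 CPM in resting, 5.04 to 6.87 CPM in control and 46.6 to 78.1 CPM in TEPP-46 libraries. Of the 6 tested, 3 were lower in control than in resting cells, and 2 were higher in TEPP-46 than in control cells. Among all genes tested, 15.5% were called higher and 15.8% lower in the first comparison, and 9.72% and 6.43% in the second. The markers did not move alike. The 2 higher in TEPP-46 than in control cells were Klrd1, which encodes CD94, and Klrk1, which encodes NKG2D, both also found on activated T cells. Klrd1 had 28, 18 and 24 counts in resting, 0, 0 and 1 in control and 40, 11 and 79 in TEPP-46 libraries, and was called lower in control than in resting cells (adjusted p = 0.00301) and higher in TEPP-46 than in control cells (adjusted p = 0.00294). Klrk1 had 27, 14 and 38 counts in resting, 7, 7 and 8 in control and 197, 26 and 51 in TEPP-46 libraries. It was higher in TEPP-46 than in control cells by 3.9 ± 0.65 (adjusted p = 0.00598) and than in resting cells by 2.23 ± 0.58 (adjusted p = 0.0379). The more NK-restricted marker Ncr1 had 1, 3 and 2 counts in resting libraries, 0 in all controls and 0, 0 and 1 in TEPP-46 libraries. Klrb1c, another NK receptor, had 14, 12 and 49 counts in resting libraries, 1, 0 and 0 in controls and 0 in all TEPP-46 libraries. For 5 NKT and innate-like markers in the table the sum was 48.9 to 110.2 CPM in resting, 34.5 to 43.0 CPM in control and 33.8 to 79.8 CPM in TEPP-46 libraries, with 2 of 3 tested lower in control than in resting cells. The sum of the 2 CD8 markers was 9.05 to 22.2, 8.07 to 10.1 and 3.88 to 11.3 CPM, with Cd8a at 1 to 14 counts in every library. Memory-like T cell markers summed to 668 to 1096 CPM in resting, 1736 to 1960.5 CPM in control and 958 to 2177 CPM in TEPP-46 libraries. Of the 11 tested, 4 were higher (Il2rb, Vim, Ahnak and Cd44) and 3 lower (Cxcr3, S100a6 and Cd40lg) in control than in resting cells, and 1 was higher (Cxcr3) and 1 lower (Vim) in TEPP-46 than in control cells. The 1 of 11 called each way in TEPP-46 against control cells is near the 9.72% and 6.43% of all genes. The part of NK, NKT, CD8 and memory-like cells in the level of Ifng was not tested.

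Targets of interferon gamma were most abundant in the TEPP-46 libraries, where Ifng RNA was at most 4.13 CPM. The 18 listed genes summed to 2555 to 3171 CPM in resting, 3251 to 3669 CPM in control and 5336 to 11112 CPM in TEPP-46 libraries. In TEPP-46 against control cells 11 of 16 tested were called higher and none lower (median log2 fold change 1.54), with Gbp4, a guanylate-binding protein of cell-intrinsic defence (1.90 ± 0.23, adjusted p = 0.00209), Iigp1, an immunity-related GTPase (3.01 ± 0.49, adjusted p = 0.00547), and Irf1, a transcription factor (1.65 ± 0.26, adjusted p = 0.00516), among those with the lowest adjusted p. Of all genes tested, 9.72% were called higher in that comparison. In control against resting cells 3 were higher, led by Gbp5 (2.63 ± 0.58, adjusted p = 0.00748), and 4 were lower, led by Irf1 (-1.09 ± 0.26, adjusted p = 0.0108), with a median of 0.39. In TEPP-46 against resting cells 8 were higher and none lower (median 1.15). Of all genes tested, 15.5% were called higher and 15.8% lower in control, and 6.37% and 3.92% in TEPP-46, against resting cells. The 3 of 16 targets called higher in control than in resting cells are near the 15.5%. Without TEPP-46 replicate 5, 7 were called higher in TEPP-46 than in control cells, and without replicate 1, 10 were higher and 1 lower. Many of these genes also answer to type I interferons, and Irf1 is on the list of Th1 signalling genes too.

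**Figure D3:**
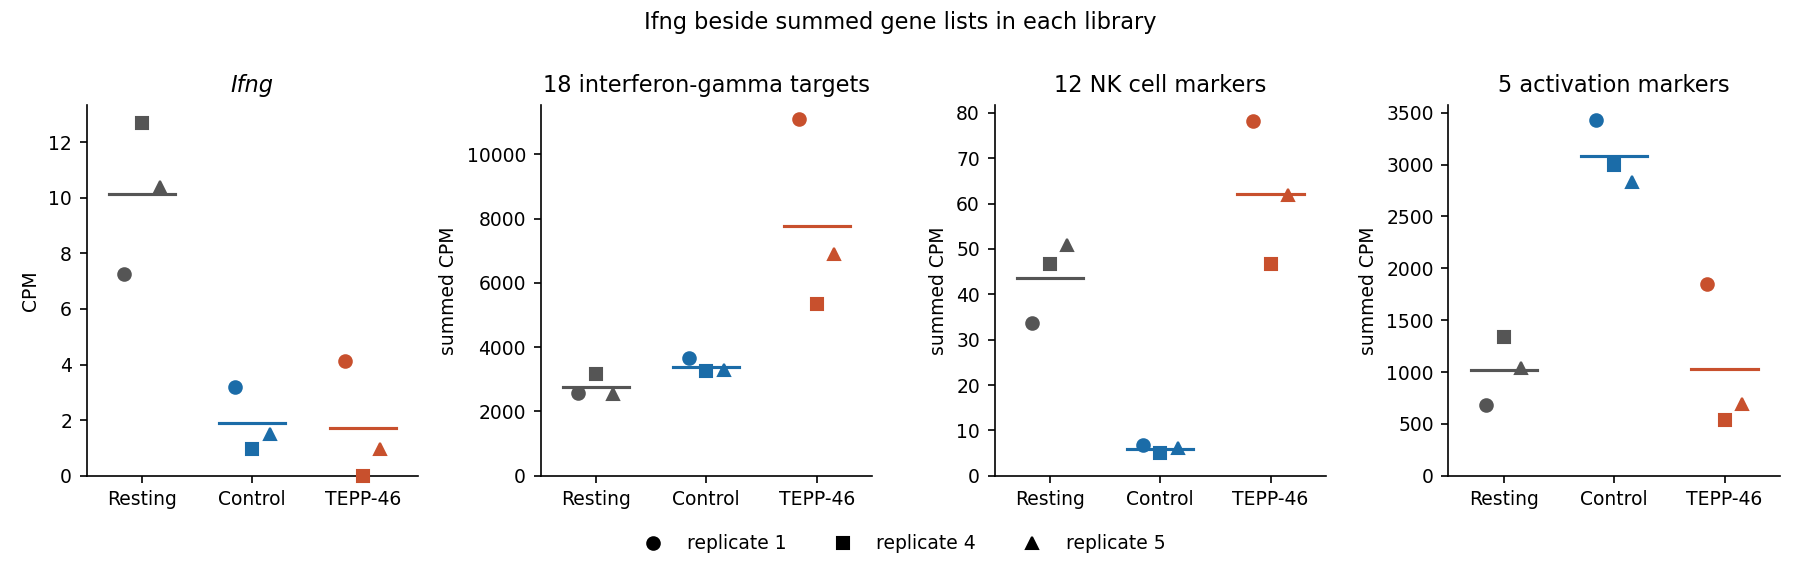
CPM of Ifng and summed CPM of 18 interferon gamma targets, 12 NK cell markers and 5 activation markers (y axes, from 0, a scale of its own in each panel) in each library by group, with marker shapes for replicates and a bar at the mean of 3. Ifng is highest in the resting libraries, whereas the summed targets are highest in the 3 TEPP-46 libraries, at 5336 to 11112 CPM.

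Other genes of the pathway moved in both directions, and the counts that follow stand beside the shares of all genes tested that were called higher and lower: 15.5% and 15.8% in control against resting, 9.72% and 6.43% in TEPP-46 against control and 6.37% and 3.92% in TEPP-46 against resting cells. Of 20 further Th1 signalling genes, all tested, 3 were higher and 9 lower in control than in resting cells (median -0.49). The kinase gene Jak1 fell by 1.92 ± 0.25 (adjusted p = 0.000819), Il6st, the shared chain of the interleukin 27 receptor, fell by 1.75 ± 0.25 (adjusted p = 0.00109), and Gadd45g, which activates p38 signalling in Th1 cells, rose by 2.55 ± 0.36 (adjusted p = 0.00111). In TEPP-46 against control cells 7 were higher and 1, Gadd45g, lower (median 0.56), with Jak1 at 1.67 ± 0.25 (adjusted p = 0.00384) and Il6st at 1.66 ± 0.25 (adjusted p = 0.00381). Against resting cells 2 were higher in TEPP-46 cells and none lower (Jak2, a kinase gene, 1.22 ± 0.30, adjusted p = 0.0322, list median -0.07). Without TEPP-46 replicate 5, 4 signalling genes were higher in TEPP-46 than in control cells.

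Of 13 tested cofactors of the Th1 programme, 4 were higher and 3 lower in control than in resting cells (median 0.18), 3 higher and 1 lower in TEPP-46 than in control cells (median 0.13), and 3 higher and none lower in TEPP-46 than in resting cells (median 0.26). The 1 of 13 called lower in TEPP-46 than in control cells is near the 6.43% of all genes. Batf3, an AP-1 family factor, rose by 9.21 ± 0.94 in control over resting cells (adjusted p = 0.00025), and TEPP-46 cells were lower than controls by -5.14 ± 0.68 (adjusted p = 0.00252). It had 0, 0 and 1 counts in resting, 321, 236 and 215 in control and 14, 0 and 3 in TEPP-46 libraries. The sizes of these changes thus rest on counts that are mostly at or under the floor of 3 in 1 of the groups compared. Irf8 rose by 3.97 ± 0.62 in control over resting cells (adjusted p = 0.00164) and by 3.27 ± 0.60 in TEPP-46 over resting cells (adjusted p = 0.0105). Id2, an inhibitor of E proteins, fell by 2.09 ± 0.29 in control against resting cells (adjusted p = 0.00104) and was higher in TEPP-46 than in control cells (1.39 ± 0.29, adjusted p = 0.0129). Without TEPP-46 replicate 5 no cofactor was called higher than in control cells, and without replicate 1 the count lower was 3.

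Th1 effector genes, which encode cytokines, chemokines, their receptors and cytotoxic proteins, gave calls in both directions. Of 14 tested, 5 were higher and 3 lower in control than in resting cells (median 0.90), 4 higher and 1 lower in TEPP-46 than in control cells (median -0.02), and 2 higher and none lower in TEPP-46 than in resting cells (median 0.72). The counts of 3 and 1 of 14 called lower in the first and second comparison are near the 15.8% and 6.43% of all genes. Lta, for the cytokine lymphotoxin alpha, rose by 5.34 ± 0.49 in control over resting cells (adjusted p = 0.000167) and stood at -5.24 ± 0.49 in TEPP-46 against control cells (adjusted p = 0.000736). Cxcr3, the chemokine receptor typical of Th1 cells and a target of T-bet, fell by 2.67 ± 0.35 in control against resting cells (adjusted p = 0.000828) and was higher in TEPP-46 than in control cells by 3.43 ± 0.36 (adjusted p = 0.0013). Gzmb, for the protease granzyme B, rose by 7.02 ± 0.86 in control and by 5.34 ± 0.81 in TEPP-46 over resting cells (adjusted p = 0.000611 and 0.00477), where TEPP-46 replicates 1, 4 and 5 held 361, 48.7 and 54.4 CPM. In TEPP-46 against control cells, 2 effector genes were higher without replicate 5 and 3 were lower without replicate 1, and against resting cells 4 were higher without replicate 1.

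Of the regulators of the other helper lineages, those called were lower in control than in resting cells and higher in TEPP-46 than in control cells. Of 14 tested, 7 were lower and none higher in control than in resting cells (median -1.05), and the rest were not called. In TEPP-46 against control cells 7 were higher and none lower (median 1.19). Both comparisons use the same control libraries, so the falls and rises are not independent. Against resting cells, Stat3 was higher and Tgfbr2 lower in TEPP-46 cells (0.83 ± 0.20, adjusted p = 0.0307, and -0.82 ± 0.22, adjusted p = 0.0444, with a list median of 0.29). Bcl6, the factor of follicular helper cells, fell by 2.56 ± 0.38 in control against resting cells (adjusted p = 0.00141) and was 3.45 ± 0.39 higher in TEPP-46 than in control cells (adjusted p = 0.00159). Tcf7, which encodes TCF-1 of naive and follicular cells, fell by 2.11 ± 0.32 (adjusted p = 0.00155) and was 2.30 ± 0.33 higher (adjusted p = 0.00315) in the same comparisons. Gata3, also on this list, was called in no comparison. It differed by 0.20 ± 0.25 in control against resting cells (adjusted p = 0.578) and by 0.03 ± 0.25 in TEPP-46 against control cells (adjusted p = 0.953). In TEPP-46 against resting cells its value was 0.23 ± 0.25 (adjusted p = 0.613). Without TEPP-46 replicate 1, whose removal changes the shared estimate of spread, 2 of these regulators were also called higher in control than in resting cells. The median log2 fold changes of all genes tested, given above for each comparison, lie between -0.04 and 0.04.

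Along the chromosomes, 13 of the 18 nearest coding neighbours of the 9 genes were tested. Clic4, a chloride channel gene 35.978 kb from Runx3, rose by 2.20 ± 0.41 in control over resting cells (adjusted p = 0.00374) and by 1.67 ± 0.41 in TEPP-46 over resting cells (adjusted p = 0.0304). Dyrk2, a kinase gene 409.71 kb from Ifng, fell by 2.37 ± 0.47 in control against resting cells (adjusted p = 0.00491). Mast3, 3.394 kb from Il12rb1, differed by 0.01 ± 0.33 in the same comparison (adjusted p = 0.99), while Il12rb1 rose. There Syf2, 183.103 kb from Runx3, fell by 0.88 ± 0.21 (adjusted p = 0.0114), while Runx3 rose. Osbpl7, 29.166 kb from Tbx21, differed by -0.26 ± 0.26 (adjusted p = 0.481), while Tbx21 rose. Golga4 beside Eomes rose by 0.86 ± 0.28 (adjusted p = 0.0401) and Dusp10 beside Hlx fell by 3.09 ± 0.36 (adjusted p = 0.000428). Neither Eomes nor Hlx was called. Genes other than Serbp1 with exonic overlap were Gm28177 on the strand of Stat4 (1033 exonic bases), Gm33460 antisense to Eomes (118 bases) and Gm49751 on the strand of Ifng (336 bases), so a part of the counts in those stretches is uncertain.

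**Figure D4:**
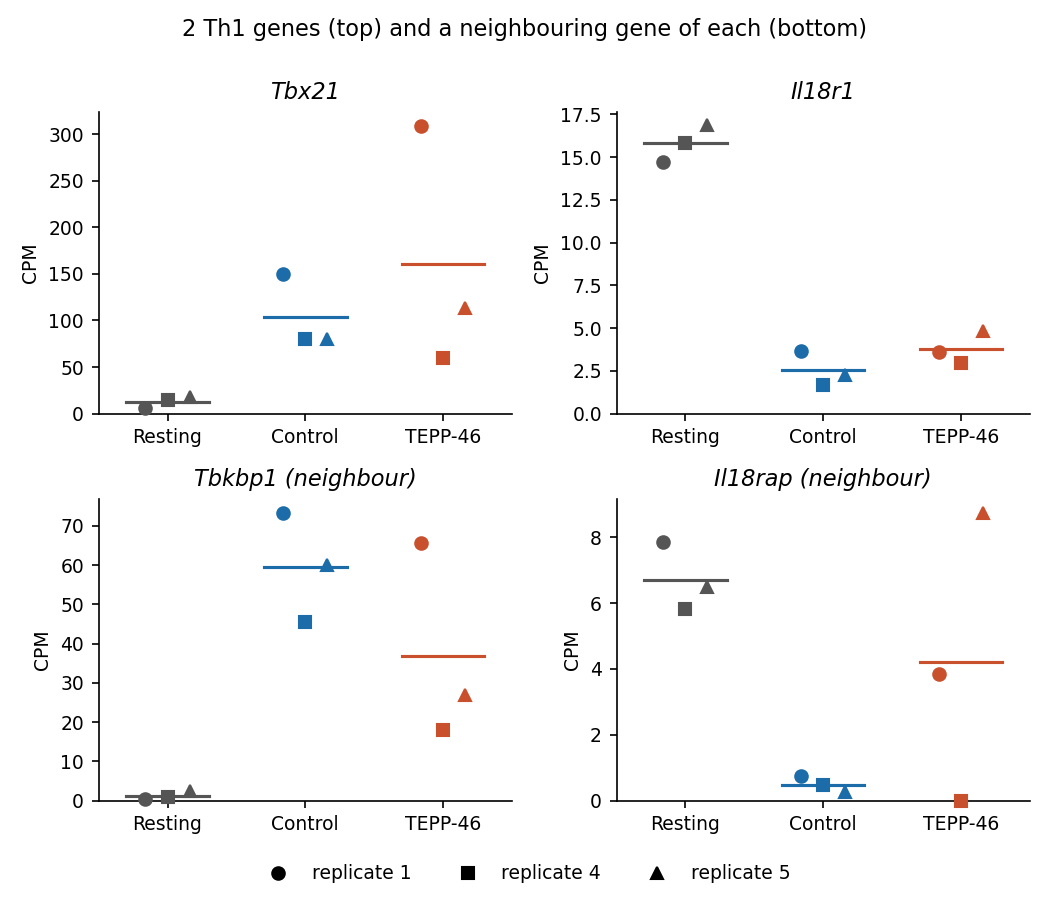
CPM (y axes, from 0, a scale of its own in each panel) of Tbx21 and Il18r1 in each library by group (top row) and of a neighbouring gene of each, Tbkbp1 and Il18rap (bottom row), with marker shapes for replicates and a bar at the mean of 3. Tbx21 and Tbkbp1 are lowest in the 3 resting libraries, and Il18rap spans 0 to 8.74 CPM in TEPP-46 libraries.

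Levels of the genes can be ranked against each other only per length of transcript, as CPM per kilobase of exon. In resting cells Stat4 led at 24.6 ± 9.70 (SD, n = 3), further above the next gene than the SDs of both. Below it, Ifng (7.80 ± 2.11), Runx3 (6.45 ± 2.45), Tbx21 (5.13 ± 2.53), Il18r1 (3.28 ± 0.227), Eomes (2.53 ± 0.677), Il12rb2 (2.39 ± 2.53), Il12rb1 (2.01 ± 1.34) and Hlx (1.02 ± 0.288) formed a series in which no gene differed from the next beyond their SDs. In control cells Il12rb2 led at 95.8 ± 33.3, above Tbx21 at 41.6 ± 16.3. Tbx21, Runx3 (27.6 ± 2.64), Il12rb1 (27.2 ± 4.07) and Stat4 (25.0 ± 3.08) were not separated by their SDs. A wide gap followed, with Eomes, Ifng, Il18r1 and Hlx at 1.73, 1.46, 0.528 and 0.36. In TEPP-46 cells the order was Il12rb2 (168 ± 107), Tbx21 (64.6 ± 52.6), Stat4 (56.7 ± 13.5), Runx3 (29.4 ± 5.71) and Il12rb1 (20.3 ± 13.0), in which only Stat4 and Runx3 are neighbours further apart than their SDs. The other 4 were again far below these, at 1.87 for Hlx, 1.31 for Ifng, 1.04 for Eomes and 0.787 for Il18r1.

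The genes with the most similar course over the 9 libraries were sought for each of the 9 among 8721 tested genes with a mean of at least 10 CPM, by the root-mean-square difference of log2 CPM after centring each gene on its mean. Stat4 had the closest match, Ptpn22, a phosphatase gene of antigen receptor signalling, at 0.14, followed by Tmco4 at 0.17, where Stat4 itself varied by 0.65 about its mean. For Runx3 these were Fbxw8 (0.20) and Il15ra, the interleukin 15 receptor alpha chain (0.25). Tbx21 was nearest to Ly6a (0.40), the surface antigen Sca-1, and to Fggy (0.48), and Il12rb1 to Fggy (0.46) and Gstt2 (0.47). Il12rb2, which varied most (2.96 about its mean), was nearest to Tg (0.65) and Slc16a3 (1.05), a lactate transporter gene. Il18r1 was nearest to Mafk (0.28) and Rhob (0.30), and Ifng to Atp8b4 (0.49) and Cd69 (0.59), the early activation marker. Hlx was nearest to Mrm2 (0.30) and Galnt9 (0.39), and Eomes to Noc3l (0.58) and Lin9 (0.60). These are descriptions over the same 9 libraries, which share depth and composition.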

How the data were processed

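Each library's deposited values are unnormalized read counts for Ensembl genes, in 1 table, per the file headers. The submitters' processing notes name GRCm38 and DESeq2, with aligner, counter and strand setting not given in the sources used here. Library preparation used a NEBNext kit for low input. Symbols and positions, counted from 1, are those of GENCODE M21 on GRCm38, which paired 47310 of 47937 identifiers with a symbol (627 were not). Of 23436 genes with a count, 12536 passed filterByExpr (minimum count 10, minimum total 15).

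All 9 libraries were fitted by group with glmQLFit and glmQLFTest of edgeR 4.0.16 (R 4.3.3, TMM factors, 6 residual degrees of freedom, common dispersion 0.109), two-sided, with Benjamini-Hochberg adjustment over the 12536 genes and a threshold of 0.05. Each SE comes from the fit. CPM uses TMM-scaled library sizes, and log2 CPM a prior count of 2. Intervals of counting error are not given, and the floor of 3 counts covers counting error only.

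The 9 genes and the gene lists were chosen with earlier results of these data known. From each list up to 4 genes were named by adjusted p, beside the nearest coding neighbours and the 2 genes most alike to each of the 9. Genes named to give the level of cell types, RNA quality or overlap (Cd4, Ncr1, Klrb1c, Klrd1, Klrk1, the memory-like markers, Cd8a, Malat1, Serbp1) were chosen after their values were seen. So were Gata3, and Gadd45g and Gzmb in a second comparison. Alternatives were DESeq2 1.42.0, limma-voom (limma 3.58.1), other scaling, other filters, fewer groups, a replicate block and leaving out each library. A gene that this rule would name is not reported here.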

Additional observations from a re-analysis of the deposited data

How the results depend on the processing

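The calls of Tbx21, Runx3, Il12rb1 and Il12rb2 against resting cells, in both comparisons, and that of Il18r1 in control against resting cells held under every alternative run. Genes called in control against resting cells numbered 3914, and 7315 by limma-voom with library weights, with 2316 to 5194 when 1 library was left out. In TEPP-46 against control cells 2025 were called, 6164 with library weights and 395 (without control replicate 5) to 4407 (without TEPP-46 replicate 1) when 1 was left out. In TEPP-46 against resting cells 1289 were called, 2078 by DESeq2, 3360 with library weights, 400 with only these groups fitted and 426 to 1897 when 1 was left out. Of the 9 genes, 2 were lower in control than in resting cells, 4 with library weights, 1 at a minimum count of 30, and 1 to 2 when a library was left out. The 1 higher in TEPP-46 than in control cells became 2 by DESeq2 and with library weights, and 0 to 2 when a library was left out. The 1 lower in TEPP-46 than in resting cells became 2 by DESeq2, by limma-voom and without a filter, 3 with library weights, and 0 to 3 when a library was left out. Log2 values near 0 changed sign: Stat4 in control against resting cells (-0.16 to 0.39 when a library was left out), and in TEPP-46 against control cells Tbx21 (-0.26 to 1.03), Ifng (-1.76 to 0.54) and Runx3 (-0.08 to 0.17, and -0.04 with total counts alone). With library weights Eomes was called lower in control (-1.12, adjusted p = 0.0252) and in TEPP-46 (-2.36, adjusted p = 0.0281) than in resting cells, and Hlx lower in control than in resting cells (-1.80, adjusted p = 0.0136). Scaling by total counts alone moved the median log2 fold change of all genes from -0.04 to 0.07 in control against resting cells and from 0.04 to -0.09 in TEPP-46 against control cells, and the share of calls that were higher in the latter from 60.2% to 43.8% (47.6% by limma-voom). The cause of these changes was not tested.

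Same-numbered libraries did not deviate together (correlations of -0.123 to 0.0893 over genes), so the numbers were not read as pairs. With the number as a replicate block, 3339, 1384 and 705 genes were called in the 3 comparisons in the order above, and of the 9 genes only Stat4 in TEPP-46 against resting cells changed its call (1.22, adjusted p = 0.0538). No value was obtained for Hlx and Ifng at a minimum count of 30, for Hlx in control against resting cells with only those groups fitted, or for both in TEPP-46 against control cells with only those groups fitted, because the filter removed them. Depth limits Hlx, Ifng and Eomes, which had 0 to 60 counts a library. It also limits Il18r1, which had 7 to 15 counts in each activated library. Counts of list genes without each TEPP-46 library were an alternative chosen after seeing the data.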
